A study of Danio rerio with 18 samples.

Results

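The arrays described here compare whole zebrafish embryos 60 hours after fertilisation that carried a tnnt2 morpholino with control embryos of the same age. They were chosen by their titles, which name the time and the kind of embryo, and they are 6 of the 18 arrays of the study, 3 morphant and 3 control. The other 12 arrays hold the same 2 kinds of embryo at 36 and 48 hours and are used for the spread of each probe set and to place the 60-hour differences in time. Morphants were embryos of the AB wild-type strain injected at the 1-cell stage with an antisense morpholino against cardiac troponin T2, a reagent of Gene Tools. Controls were of the same strain at the same age. Their titles call them wild type and list no reagent, while the study's design text names a control morpholino, so whether they were injected is not settled by the labels. All embryos were kept in E3 medium at 28 °C, a group held equal numbers of embryos from every pair of parents, and each array took RNA from several embryos. A morpholino lowers the protein of its target for a limited time and leaves the gene intact. The labels do not say whether this one blocks translation or splicing. Nor do they tie the 3 arrays of a kind to separate injections or clutches, so the spread behind each p-value may be technical.

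Cardiac troponin T ties the troponin complex to the thin filament of heart muscle and makes contraction answer to calcium. Zebrafish embryos without it form a heart that does not beat, and they go on developing for days because oxygen reaches them by diffusion. At the age sampled here the retina is turning out its first photoreceptors, red cells carry embryonic globins, and the liver and the yolk syncytial layer make plasma proteins and lipids. Whole embryos mix all of these tissues, so fewer cells of a type and less RNA per cell cannot be told apart in any difference below.

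Values are log2 expression values of probe sets after quantile normalisation, which gives every array the same distribution, so a difference is measured against the rest of the array. A probe set was called when its morphant minus control difference had an adjusted p under 0.05 (limma on all 18 arrays, Benjamini-Hochberg over 11626 probe sets). Before normalisation the 60-hour arrays were unequal. The deposited medians of the controls were 2.14, 1.19 and 2.45, and those of the morphants 2.19, 2.53 and 2.56. Control array 2 was the dimmest, and the authors' standard errors had a median of 0.54 there against 0.26 to 0.33 on the other 5. The morphant minus control difference in array medians was 0.50, which did not pass an exact permutation test (two-sided, p = 0.2, the smallest possible being 0.1). Pairs of arrays correlated at r = 0.845 to 0.959, so none repeated another.

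The target transcript was measured by 1 probe set of tnnt2a. Its level was 2.37, 2.28 and 2.94 in the controls and 1.56, 1.96 and 3.14 in the morphants. The groups overlapped, and the difference of -0.31 ± 0.47 (SE, n = 3 per group) did not pass (limma adjusted p = 0.744). Because the mode of action of the morpholino is not given, this level was not used as a check of the knockdown. Markers of muscle, epidermis and red cells were present in both groups. Control and morphant means on the log2 scale were 9.65 and 9.54 for the creatine kinase ckma of muscle. They were 9.97 and 10.13 for krt4 of the epidermis and 5.75 and 5.85 for alas2 of red cells. Not all markers were present. Among photoreceptor markers opn1sw1, gnat1 and gnat2 had morphant means of 0.37, -0.97 and -0.82, under the filter value of 0.62, while opn1sw2, rho and crx lay above it. The pigment gene tyr lay under it in both groups (-0.02 and -0.03), while dct was at 6.22 and 6.18.

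At 60 hours 107 of 11626 probe sets were called (0.92%), 79 higher in morphants (0.68%) and 28 lower (0.241%). A larger share of probe sets was therefore called than at 36 hours (0.181%) or 48 hours (0.568%), which was not tested as a difference. The called probe sets included 37 with a gene name, for 25 genes that rose and 9 that fell. Another 39 had no gene name but a similarity to a known protein or a product in the authors' descriptions, and 31 had neither. Of the 9 named genes that fell, 2 are listed for phototransduction and 3 as retinal transcription factors. Genes of sterol synthesis, a beta globin and targets of a starvation response were among those that rose, as were unnamed probe sets similar to complement proteins. In each of the 107 probe sets the 3 morphant values lay wholly above or wholly below the 3 control values, as they did in 8.89% (above) and 11.3% (below) of all probe sets tested.

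**Figure D1:**
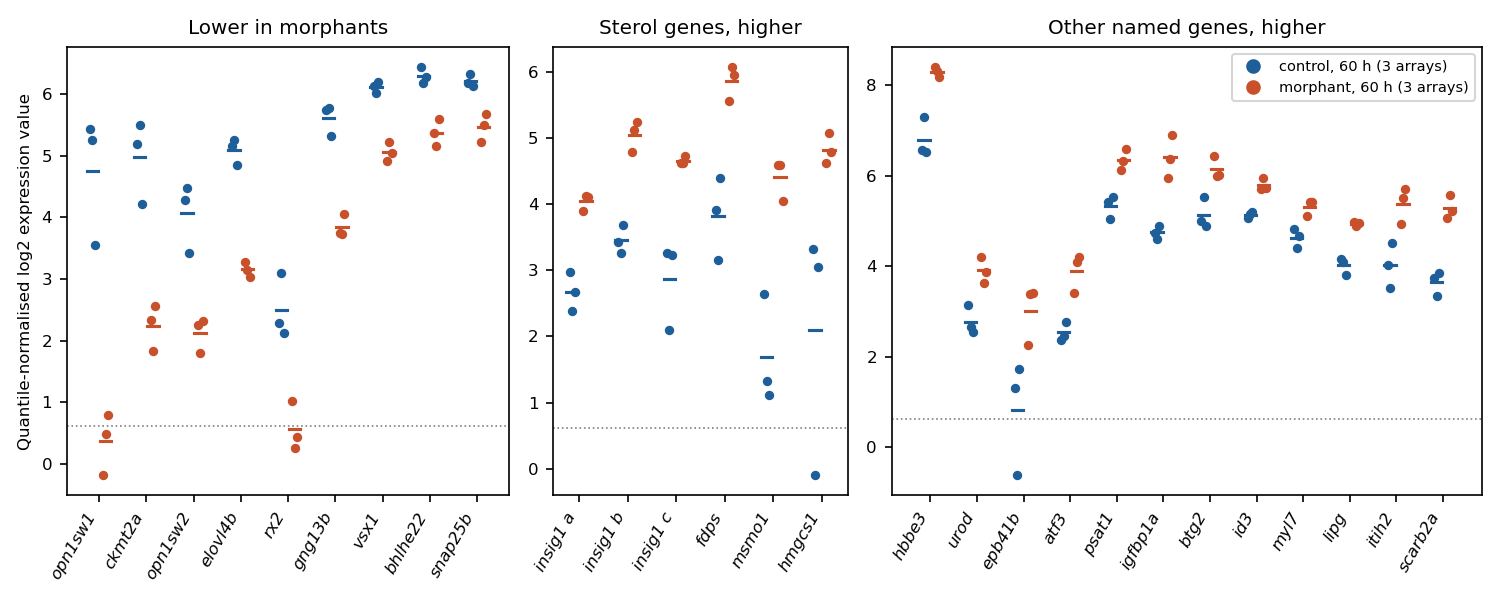
Quantile-normalised log2 expression value (vertical axes) of named probe sets called at 60 hours. Each point is 1 array, bars are group means, the 3 panels hold all 9 genes that fell, the sterol genes and 12 other genes that rose, insig1 a, b and c are its 3 probe sets in order of the difference, and the dotted line marks 0.62, under which a level is too dim to fix a fold. No gene shown has overlapping groups, and the control values of opn1sw1, msmo1, epb41b and hmgcs1 are spread most widely.

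The named phototransduction genes that passed were a pair of short-wave opsins, light-sensing proteins of cones. For opn1sw1, the ultraviolet opsin, the control arrays read 5.43, 5.26 and 3.56 and the morphant arrays -0.17, 0.49 and 0.80. The 2 groups were far apart, and the transcript fell by 4.37 ± 0.70 on the log2 scale (limma adjusted p = 0.00896), with the morphants too dim for a fold. For opn1sw2, the blue opsin, the controls read 4.28, 4.48 and 3.43 and the morphants 2.26, 1.80 and 2.32. This is a 3.83-fold fall, by 1.94 ± 0.32 (limma adjusted p = 0.0102). Control array 3 was the lowest control for both opsins, and without it the fall of opn1sw1 was larger, by 4.97. Without control array 2 both calls were lost (limma adjusted p = 0.0642 for opn1sw1 and 0.0661 for opn1sw2), and that of opn1sw2 was lost as well without morphant array 2 (0.0660).

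Of 70 genes listed for phototransduction and the visual cycle, 24 had a named probe set and 12 of these were bright enough to be tested. The 2 opsins fell and none rose, while 9 of the 12 differences lay below 0 and in 8 all morphants lay below all controls. Over all named genes tested 9 were called lower, 1479 lay below 0 and 342 had all morphants below all controls. The median difference of the list was -1.90, against -0.04 over the 2725 named genes tested, and it ran from -2.13 to -1.44 with any 1 array left out. Of the 12 genes 4 were named only by the authors' deposited lists, against 23 of the 2725. Those lists hold probe sets that the authors found to differ in these same data. The filter took the mean of a probe set over all arrays, the 60-hour controls included. A gene bright mainly in those controls could therefore be among the 12. For opn1sw1 the control means were 0.89 at 36 hours, 1.76 at 48 hours and 4.75 at 60 hours, against 0.37 in the 60-hour morphants. How far the filter shaped the list was not tested. For both reasons the counts and the median of the list only describe it. Rhodopsin, the rod opsin (rho), read 5.50, 6.02 and 4.43 in controls and 3.33, 2.93 and 3.43 in morphants. All morphants were lower than all controls, but the difference of -2.09 ± 0.67 did not pass (limma adjusted p = 0.148). The cone transducin subunit gnat2 (-2.75 ± 0.68), the retinaldehyde-binding protein gene rlbp1a (-1.43 ± 0.35) and the pineal opsin exorh (-1.87 ± 0.57) likewise had groups apart without passing (limma adjusted p = 0.0605, 0.0578 and 0.127). One called probe set without a gene name resembled the inhibitory gamma subunit of the rod phosphodiesterase 6. It read 5.97, 6.16 and 5.46 in controls and 4.83, 4.22 and 4.35 in morphants, a 2.63-fold fall (limma adjusted p = 0.0434) whose call was lost without control array 1 or 2 or morphant array 2 or 3 (from 0.144 to 0.201) and with arrays centred on their medians (0.0525).

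Among transcription factors of the retina 3 fell. The eye-field homeobox gene rx2 read 2.28, 3.1 and 2.13 in controls and 1.02, 0.27 and 0.44 in morphants. It fell by 1.93 ± 0.38 (limma adjusted p = 0.0232), with the morphant mean too dim for a fold. With the 6 arrays of 60 hours fitted alone rx2 was not called (limma adjusted p = 0.143). A second, dimmer probe set of rx2 was at -2.78 ± 0.87 and did not pass (limma adjusted p = 0.135). The bipolar cell gene vsx1 read 6.13, 6.02 and 6.19 against 4.91, 5.22 and 5.05, a 2.08-fold fall by 1.05 ± 0.19 (limma adjusted p = 0.0197). Replicates of vsx1 were tight, with a control SD of 0.09 and a morphant SD of 0.16. The helix-loop-helix gene bhlhe22, active in amacrine and bipolar cells in the mouse retina, fell 1.89-fold (limma adjusted p = 0.0197). These 3 were the called genes among 27 retinal transcription factors tested of 42 listed. Of the 27 differences 22 lay below 0 and in 16 all morphants lay below all controls, with a median of -0.57. Over the 2725 named genes tested 9 were called lower, 1479 lay below 0 and 342 had all morphants below all controls. Among those that did not pass, otx2b was at -0.63 ± 0.17, the eye-field gene rx3 at -1.81 ± 0.50 and six3a at -0.72 ± 0.22 (limma adjusted p = 0.0926, 0.0953 and 0.122). The calls of rx2 and vsx1 were lost without control array 1 or 2 or morphant array 2 or 3 (limma adjusted p from 0.0596 to 0.163 for rx2 and from 0.0649 to 0.0778 for vsx1), and that of bhlhe22 without control array 1 or 2 or morphant array 2 (from 0.0661 to 0.163).

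Other genes that fell are used in the retina or in neurons. The elongase elovl4b, whose mammalian relative makes the very long fatty acids of photoreceptor membranes, read 5.15, 5.26 and 4.85 in controls and 3.28, 3.14 and 3.04 in morphants. It fell 3.81-fold, by 1.93 ± 0.33 (limma adjusted p = 0.0109). The G protein gamma subunit gng13b, a relative of the subunit found in ON bipolar cells of mammals, read 5.74, 5.77 and 5.33 against 3.74, 3.73 and 4.05 and fell 3.41-fold (limma adjusted p = 0.0453). The names of elovl4b and gng13b come only from the authors' deposited lists. Both therefore count in gene lists only because the authors found them to differ in these same data. The synaptic vesicle fusion gene snap25b fell 1.67-fold (limma adjusted p = 0.0453), whereas its duplicate snap25a, at 6.43 in controls and 6.61 in morphants on average, and the pan-neuronal gene elavl3, at 4.31 and 5.28, did not pass. Of 20 genes listed for neurons and synapses, gng13b and snap25b fell and none rose, against 9 and 23 of the 2725 named genes tested. The median of the list was 0.05. A probe set similar to human calretinin, a calcium-binding protein of many neurons, fell 1.80-fold (limma adjusted p = 0.0286). Without control array 2 or morphant array 2 or 3 none of elovl4b, gng13b, snap25b and calretinin was called (limma adjusted p from 0.0568 to 0.198), and without control array 1 only elovl4b was (0.0478). Without morphant array 1 gng13b (0.0544) and snap25b (0.0684) were lost by limma too.

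Lens transcripts lay below the controls without any call by limma. Among the descriptions, 7 tested probe sets were alpha, beta or gamma crystallins, a group picked after the results were seen. All 7 differences were below 0, from -2.02 to -0.19, against 50.3% of all probe sets tested. In 4 all morphants lay below all controls, against 11.3% of all. An unadjusted limma p under 0.05 was reached by 4, and by 2064 of all 11626 probe sets in either direction. The last count is the reference for the unadjusted counts of gene lists below. The alpha crystallin gene cryaa, at -2.02, had a wide spread (limma adjusted p = 0.234).

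Outside the eye and nervous system the largest fall of a named gene was that of ckmt2a, the mitochondrial creatine kinase of striated muscle. Its level was 5.20, 5.50 and 4.23 in controls and 2.33, 1.83 and 2.57 in morphants. The groups were apart, and the gene fell 6.64-fold, by 2.73 ± 0.60 (limma adjusted p = 0.0407). A probe set similar to human myoglobin, the oxygen-binding protein of muscle, read 5.78, 5.90 and 5.19 against 4.67, 4.52 and 4.29. It fell 2.18-fold, by 1.13 ± 0.21 (limma adjusted p = 0.0197). These falls were not shared by skeletal muscle genes at large. Of 22 genes listed, ckmt2a fell and none rose, against 9 and 23 of the 2725 named genes tested. The median difference of the list was -0.01. It was -0.41 with arrays only centred on their medians. The calls of ckmt2a and of the myoglobin-like probe set were lost without control array 1 or 2 or morphant array 2 or 3 (limma adjusted p from 0.0899 to 0.195).

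Among heart muscle genes, the regulatory myosin light chain gene myl7 read 4.82, 4.40 and 4.68 in controls and 5.1, 5.43 and 5.41 in morphants. It rose 1.60-fold, by 0.68 ± 0.15 (limma adjusted p = 0.0453). Its call was lost without control array 1 or 2 or morphant array 2 or 3 (limma adjusted p from 0.0789 to 0.220) and with arrays centred on their medians (0.155). Of 10 heart muscle genes tested myl7 rose and none fell, against 23 and 9 of the 2725 named genes tested. The median of the list was 0.32. The calcium pump gene atp2a2b (0.43 ± 0.16), the tropomyosin gene tpm4a (0.63 ± 0.28) and myh7 (0.54 ± 0.26) did not pass (limma adjusted p = 0.198, 0.256 and 0.288). None of 11 heart transcription factors was called by limma, with 2 higher and 1 lower at an unadjusted p under 0.05. The genes vmhc, nppa and kdrl had no named probe set.

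Blood flow acts on the endothelium, and flow-responsive genes were listed for that reason. None of 12 tested was called by limma, and at an unadjusted p under 0.05 there were 3 higher and 2 lower. The shear-stress factor klf2a read 4.43, 4.25 and 4.13 in controls and 3.37, 3.14 and 3.64 in morphants. All morphants were below all controls, yet the difference of -0.89 ± 0.23 did not pass (limma adjusted p = 0.0795), nor did it with any 1 array left out, where the lowest adjusted p was 0.0515. The chemokine receptor gene cxcr4a was at 1.56, 1.91 and 2.01 against 3.23, 2.93 and 3.48. Its difference of 1.39 ± 0.42 did not pass (limma adjusted p = 0.122), although at 48 hours it was 2.78 and passed (0.0029). The lymphatic and liver factor prox1a was at -0.94 ± 0.27 and the nitric oxide synthase gene nos1 at 2.67 ± 0.65 (limma adjusted p = 0.110 and 0.0570). Of 12 endothelial genes none was called by limma, and 2 were lower at an unadjusted p under 0.05.

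**Figure D2:**
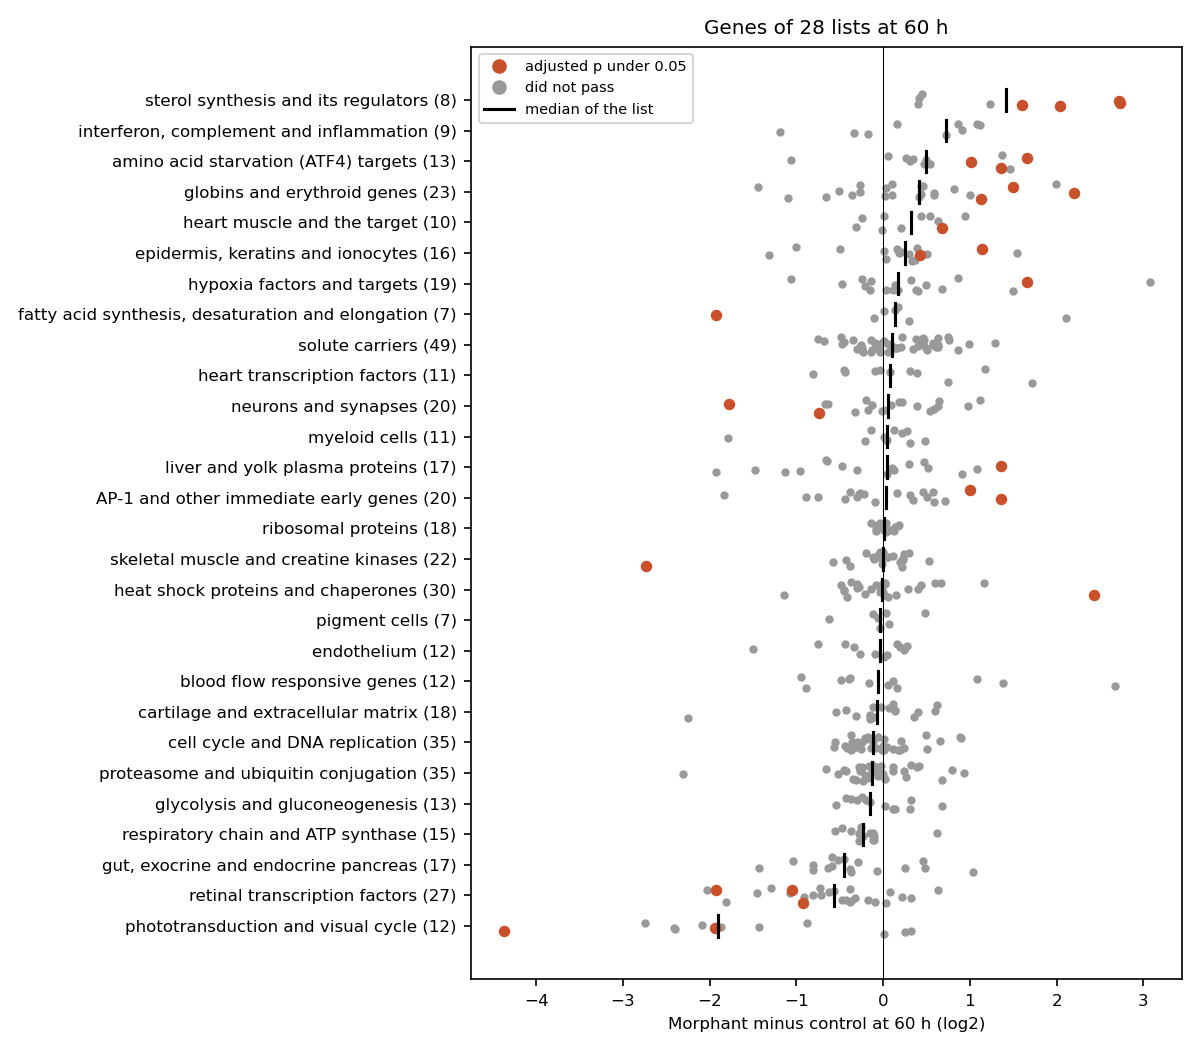
Morphant minus control difference at 60 hours (log2, horizontal axis) of the tested genes of 28 lists, ordered by their median. Each point is 1 gene by its brightest probe set, orange points passed limma's test, and the number of genes is in parentheses. All reported lists with at least 5 tested genes are shown. The sterol list lies wholly above 0, with a median of 1.42, and the phototransduction list has the lowest median, -1.90. Genes were admitted by their mean over all arrays, the controls at 60 hours included, so the medians only describe the lists.

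Of 8 genes of sterol synthesis and its regulation tested, 4 rose in the morphants. They were the enzyme genes hmgcs1, fdps and msmo1 and the regulator insig1. In sterol synthesis acetyl units are joined to mevalonate, then to farnesyl diphosphate, and then to sterols, and the pathway is turned down by sterol through the protein INSIG. The early synthase gene hmgcs1 read 3.32, -0.09 and 3.06 in controls and 4.62, 5.07 and 4.78 in morphants. It rose by 2.73 ± 0.61 (limma adjusted p = 0.0434), but the value of the dim control array 2 was far below the others, and without that array the rise was 1.62 (limma adjusted p = 0.101). It also missed the threshold under median centring (limma adjusted p = 0.0527). Farnesyl diphosphate synthase, fdps, read 3.91, 3.15 and 4.39 against 5.56, 6.07 and 5.95. Its rise of 4.12-fold was called with any 1 of the 6 arrays left out, at limma adjusted p of at most 0.0096. The name of fdps comes from a clone alone, with no protein or product in its description. The late enzyme msmo1, which removes methyl groups from the sterol ring, read 2.64, 1.32 and 1.12 against 4.59, 4.59 and 4.05 and rose 6.57-fold. For hmgcs1 and msmo1 the calls were also lost without morphant array 2 or 3 (limma adjusted p from 0.0910 to 0.190), and for msmo1 without control array 2 (0.128).

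The feedback gene insig1 had 3 probe sets, and all rose. The one named only by the authors' deposited lists read 3.43, 3.26 and 3.68 in controls and 4.79, 5.12 and 5.24 in morphants, a 3.02-fold rise that held with any 1 array left out (limma adjusted p of at most 0.0255). The other 2 rose 2.58-fold and 3.46-fold (limma adjusted p = 0.0197 for both) and lost their calls without control array 2 or morphant array 2 or 3 (from 0.0913 to 0.142). Of the 8 tested of 31 listed 4 rose and none fell, and all 8 differences lay above 0. Over the 2725 named genes tested 23 were called higher and 1246 lay above 0. The 4 that did not pass were acat2 at 0.45 ± 0.19, lbr at 0.42 ± 0.22, ggps1 at 0.41 ± 0.26 and cyp51 at 1.24 ± 0.91. A second, dimmer probe set of ggps1, named from a clone alone, was at 1.36 ± 0.35 (limma adjusted p = 0.0794). The medians of the list were 1.05 at 36 hours and 1.2 at 48 hours against 1.42 at 60 hours.

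Lipid handling beyond the sterol pathway gave single calls. The endothelial lipase gene lipg, which cleaves phospholipids of lipoproteins, read 4.15, 4.10 and 3.81 in controls and 4.98, 4.88 and 4.96 in morphants and rose 1.89-fold (limma adjusted p = 0.0140). The lysosomal membrane gene scarb2a rose 3.11-fold (limma adjusted p = 0.00945). A probe set similar to a human peroxisomal acyl-coenzyme A thioesterase rose 2.99-fold (limma adjusted p = 0.0280). Of 7 genes for fatty acid synthesis and elongation, elovl4b fell and none rose, against 9 and 23 of the 2725 named genes tested. The name of elovl4b comes only from the authors' lists, so this count only describes the list. The desaturase fads2 was at 2.11 without passing (limma adjusted p = 0.0794). All 3 calls were lost without morphant array 2 (limma adjusted p = 0.0660 for lipg, 0.0660 for scarb2a and 0.172 for the thioesterase). Without control array 2 scarb2a (0.0645) and the thioesterase (0.112) were lost, and without morphant array 3 lipg (0.0572) and the thioesterase (0.101). The call of lipg was also lost under median centring (limma adjusted p = 0.0855).

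Red cell genes moved unequally. The embryonic beta globin hbbe3 had the smallest p of all probe sets. It read 6.56, 7.30 and 6.53 in controls and 8.39, 8.32 and 8.18 in morphants, a 2.83-fold rise by 1.5 ± 0.15 (limma adjusted p = 7.66e-05). The call held without any 1 array, with rises from 1.36 to 1.74, but it was lost with arrays centred on their medians, where the rise was 1.14 (limma adjusted p = 0.203). Another embryonic globin, hbbe2, read 8.41, 8.59 and 8.41 against 8.0, 8.13 and 8.20, so its groups were apart in the opposite direction, at -0.36 ± 0.14 without passing (limma adjusted p = 0.20). With hbbe1.1 the difference was 0.41 ± 0.22 (limma adjusted p = 0.341). Beta globin genes are near-identical in places, and signal may be shared between their probe sets. The haem enzyme urod read 3.14, 2.65 and 2.55 against 4.21, 3.64 and 3.87 and rose 2.19-fold (limma adjusted p = 0.0167). The membrane skeleton gene epb41b read 1.31, -0.61 and 1.74 against 2.26, 3.38 and 3.40 and rose by 2.2 ± 0.45 (limma adjusted p = 0.0311), with control array 2 again the lowest. Without control array 2 the rise of epb41b was 1.48 (limma adjusted p = 0.101) and urod was not called (0.0756).

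Of 23 globin and erythroid genes tested, hbbe3, urod and epb41b rose, none fell and 16 differences lay above 0. Over the 2725 named genes tested 23 were called higher and 1246 lay above 0. The median of the list was 0.41, and it was 0.13 with arrays centred on their medians. The first enzyme of haem synthesis in red cells, alas2, was nearly level, with 5.78, 5.76 and 5.70 in controls and 5.89, 5.78 and 5.86 in morphants. The anion exchanger slc4a1a (0.44 ± 0.13) and the carbonic anhydrase cahz (0.44 ± 0.19) had groups apart without passing (limma adjusted p = 0.121 and 0.249). The calls of urod without morphant array 3 (0.0572) and of epb41b without control array 1 or morphant array 2 or 3 (from 0.0529 to 0.179) were also lost by limma.

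Complement proteins, plasma proteins that mark and pierce microbes, were found mainly by similarity. A probe set similar to human C6, a part of the membrane attack complex, read 2.76, 0.46 and 0.97 in controls and 3.61, 3.55 and 3.51 in morphants. The morphants agreed closely while the controls spread widely, and the rise was 2.16 ± 0.47 (limma adjusted p = 0.0404). One similar to C4, an early component, read 2.37, 3.00 and 3.06 against 3.8, 4.94 and 4.67 and rose 3.16-fold (limma adjusted p = 0.0232). Probe sets similar to the central component C3 and to C9, which forms the pore, rose 1.94-fold and 1.73-fold (limma adjusted p = 0.0453 for both). In all, 12 tested probe sets carried a complement component or factor in their description, a group picked after the results were seen. All 12 differences lay above 0, also with arrays centred on their medians, against 49.7% of all probe sets tested. Of the 12, 4 were called higher, against 0.68% of all. In 10 all morphants lay above all controls, against 8.89% of all, and the median was 0.88. Several of the 12 stand for the same protein and are not separate evidence. At 36 and 48 hours the medians of the same probe sets were 0.05 and 0.21. Without control array 2 or morphant array 2 or 3 none of the 4 was called, and without control array 1 only C6 was (limma adjusted p from 0.0691 to 0.224 for calls lost). Under median centring C3 (0.0586) and C9 (0.110) were not called by limma.

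Other plasma protein genes did not follow as a group. The inter-alpha-trypsin inhibitor heavy chain gene itih2 rose 2.57-fold (limma adjusted p = 0.0197), the only call among 17 liver and yolk plasma protein genes, whose median was 0.04. At an unadjusted limma p under 0.05, 5 of the 17 were higher and 5 lower. In 5 all morphants lay above all controls and in 5 below, against 264 and 342 of the 2725 named genes tested. Over the 2725 named genes tested 23 were called higher and 9 lower. The retinol carrier rbp4 read 8.96, 8.93 and 9.13 in controls and 8.34, 8.46 and 8.79 in morphants. All morphants were lower, and the difference of -0.48 ± 0.11 just missed the threshold (limma adjusted p = 0.0514). The liver marker fabp10a was at 2.55 in controls and 1.42 in morphants on average. Glycine N-methyltransferase, which consumes the methyl donor S-adenosylmethionine in liver, was named by similarity only. It read 3.37, 3.45 and 3.56 in controls and 5.55, 5.48 and 5.26 in morphants, and its 3.92-fold rise was called with any 1 array left out (limma adjusted p of at most 0.0411). The call of itih2 was lost without control array 1 or 2 or morphant array 2 or 3 (limma adjusted p from 0.0601 to 0.132).

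The response to amino acid shortage runs through the transcription factor ATF4, and 3 of 13 of its listed targets rose. The binding protein igfbp1a, which ties up insulin-like growth factors and answers to hypoxia and starvation, had 2 probe sets. The brighter read 4.74, 4.60 and 4.90 in controls and 5.95, 6.36 and 6.89 in morphants, a 3.15-fold rise (limma adjusted p = 0.00896), and the other rose 2.83-fold (0.0232) with its call lost without control array 1 or 2 or morphant array 2 or 3 (from 0.0529 to 0.132). The serine synthesis enzyme psat1 read 5.42, 5.03 and 5.53 against 6.13, 6.32 and 6.59 and rose 2.02-fold (limma adjusted p = 0.0109). The stress-induced transcription factor atf3 read 2.38, 2.46 and 2.77 against 3.40, 4.09 and 4.20 and rose 2.57-fold (limma adjusted p = 0.0407). Of the 13 targets none fell, 12 differences lay above 0, and the median was 0.49, while over the 2725 named genes tested 23 were called higher and 1246 lay above 0. With arrays centred on their medians 10 of the 13 lay above 0 and the median was 0.29. The asparagine synthetase gene asns and the hormone gene stc2a were at 1.37 and 1.46 without passing. Without morphant array 3 each of the 3 was lost (limma adjusted p = 0.0521 for the brighter igfbp1a probe set, 0.0761 for psat1 and 0.178 for atf3). Without control array 2 or morphant array 2 psat1 (0.0691 and 0.0660) and atf3 (0.142 and 0.190) were lost, and without control array 1 atf3 (0.138).

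Among the named genes listed for hypoxia only igfbp1a was called. The growth factor gene vegfaa read 0.52, 1.33 and 2.02 in controls and 2.91, 2.88 and 2.58 in morphants, and its difference of 1.5 ± 0.47 did not pass (limma adjusted p = 0.134). The mitochondrial gene higd1a was at 0.87 ± 0.23 (limma adjusted p = 0.0840). Of 19 hypoxia genes 1 rose and none fell, against 23 and 9 of the 2725 named genes tested. The median of the list was 0.17. A probe set similar to the human hypoxia factor EPAS1 read 1.65, 1.63 and 1.82 against 2.31, 3.48 and 3.23 and rose 2.47-fold (limma adjusted p = 0.0453). That call was lost without control array 1 or 2 or morphant array 2 or 3 (limma adjusted p from 0.139 to 0.255) and with arrays centred on their medians (0.0527).

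Further transcription factors and growth regulators were called singly. The anti-proliferative gene btg2 read 4.99, 5.52 and 4.89 in controls and 6.43, 5.99 and 6.01 in morphants and rose 2.01-fold (limma adjusted p = 0.0197). The inhibitor of helix-loop-helix factors id3 rose 1.58-fold, by 0.66 ± 0.12 (limma adjusted p = 0.0197). The AP-1 subunit fosl2 rose by 2.96 ± 0.66 on a probe set whose controls were too dim for a fold (limma adjusted p = 0.0441), while its brighter probe set was at 0.59 ± 0.32 and did not pass (0.327). Of 20 AP-1 and immediate early genes btg2 and atf3 rose and none fell, with a median of 0.04. Over the 2725 named genes tested 23 were called higher and 9 lower. The LIM homeobox gene lhx1b rose 2.27-fold (limma adjusted p = 0.0407). The remaining named genes that rose were ak3, an adenylate kinase of mitochondria, the sodium pump subunit atp1b1b, the membrane protein gene itm2ba, the chaperone gene dnajc5gb, the ribosome assembly gene rsl24d1, naca of the nascent chain complex and the keratin cyt1. Their rises ran from 0.42 for cyt1 to 2.43 for dnajc5gb. The names of dnajc5gb and of the called fosl2 probe set come from a clone alone, with no protein or product in the description. For naca and cyt1 the call rested on 1 probe set each. The brightest probe set of naca was level, at -0.003 ± 0.083 (limma adjusted p = 0.986). Its other uncalled probe sets lay on both sides of 0. The dimmer probe sets of cyt1 were at 0.48, 0.064, 0.045 and -0.61, and none was called. Only for the last did all morphants lie below all controls (limma adjusted p = 0.297). With arrays only centred on their medians the called probe set of cyt1 was at -0.056 and that of naca at 0.011. There rsl24d1 was at 0.23, id3 at 0.46 and btg2 at 0.81. None of these 5 was called with that scaling (limma adjusted p = 0.948, 0.989, 0.602, 0.249 and 0.224). The calls of fosl2 (0.0602) and dnajc5gb (0.0542) were lost by limma there too. Of 16 epidermal genes, cyt1 and atp1b1b rose and none fell, against the same 23 and 9 of 2725. With that scaling the median of the epidermal genes went from 0.25 to -0.04. The calls of btg2 were lost without control array 1 or morphant array 2 or 3 (limma adjusted p from 0.0572 to 0.0950), and those of id3, fosl2, lhx1b, ak3, atp1b1b, itm2ba, rsl24d1, naca and cyt1 without control array 1 or 2 or morphant array 2 or 3 (from 0.0529 to 0.198). That of dnajc5gb was kept only without control array 2 (0.0038).

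Of the called probe sets without a gene name the biggest rises rested on dim controls. An endogenous retrovirus envelope transcript read -3.28, -1.85 and 1.69 in controls and 1.84, 4.20 and 4.73 in morphants. Control array 3 and morphant array 1 nearly met, and the rise was 4.74 ± 0.90 (limma adjusted p = 0.0197). The probe set similar to hepatocyte nuclear factor 1-gamma rose by 3.87 ± 0.62, that for the calcium-binding protein nucleobindin 2 by 3.77 ± 0.74 and that similar to protein kinase C delta by 3.23 ± 0.70 (limma adjusted p = 0.00906, 0.0232 and 0.0396), all too dim in controls for a fold. Brighter ones were a ras-related protein (3.35-fold), a natural killer tumour recognition protein (3.37-fold), the splicing factor similar to Prp3 (3.48-fold), a C1q-related factor (2.58-fold) and the kinase MNK2 (2.42-fold). A gap junction protein, a connexin, rose by 1.52 with controls too dim for a fold. Those that fell, beside the ones above, included a zinc finger protein 41 relative (by 2.80, too dim for a fold), a protein similar to FLJ12553 (3.13-fold), the TSSC1 relative (2.38-fold), keratin 10 (1.82-fold), HINT (1.75-fold), CH-TOG (1.68-fold) and a class I beta tubulin (1.42-fold). Only the FLJ12553 relative, with 4.56, 4.63 and 4.52 against 3.02, 2.5 and 3.26, was called with any 1 array left out among these (limma adjusted p of at most 0.0162). Of the other 16, all but the zinc finger protein 41 relative were lost without morphant array 2 (limma adjusted p from 0.066 to 0.19), and all but it and hepatocyte nuclear factor 1-gamma without control array 2 (from 0.0636 to 0.198). Without control array 1 the losses spared hepatocyte nuclear factor 1-gamma, protein kinase C delta and the C1q-related factor, and without morphant array 3 hepatocyte nuclear factor 1-gamma, the C1q-related factor and keratin 10 (limma adjusted p from 0.0899 to 0.183 for calls lost). Under median centring protein kinase C delta, MNK2, the TSSC1 relative, keratin 10, HINT, CH-TOG and the beta tubulin were not called (limma adjusted p from 0.0525 to 0.145).

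Of 32 tested probe sets described as tubulins, also a group picked after the results were seen, 25 lay below 0, against 50.3% of all probe sets tested. In 15 all morphants lay below all controls, against 11.3% of all. Their differences ran from -1.52 to 1.0 with a median of -0.24, 1 fell and none rose. By description 33 keratin probe sets, of which 1 rose and 1 fell, had a median of -0.09, and 100 ribosomal protein probe sets, of which 1 rose and none fell, one of -0.06. Over all probe sets tested 0.68% were called higher and 0.241% lower. Genes of the respiratory chain and ATP synthase had 14 of 15 differences below 0 with a median of -0.23. Those of the proteasome and ubiquitin conjugation had 24 of 35 below 0 with a median of -0.13. Of all 2725 named genes tested 1479 lay below 0. Neither list held a limma call (2 lower and none higher in the first, and 6 lower and 3 higher in the second, at an unadjusted p under 0.05). Median centring of the arrays took the medians to -0.64 for tubulins, -0.52 for the respiratory chain and -0.39 for the proteasome and ubiquitin conjugation. It took them to -0.44 for the keratins and -0.45 for the ribosomal probe sets, while all named genes went from -0.04 to -0.19. Among 35 cell cycle genes none was called by limma (3 higher and 2 lower at an unadjusted p under 0.05), and among 18 ribosomal protein genes none was either (0 at an unadjusted p under 0.05).

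The 60-hour differences were compared with those of the earlier times, which share no array with them. Of the 79 probe sets that were higher, 57 were above 0 at both 36 and 48 hours, against 30.2% of all probe sets, and of the 28 that were lower, 25 were below 0 at both, against 27.9%. Of the 107, 8 had been called at 36 hours and 16 at 48 hours, against 0.181% and 0.568% of all probe sets tested. The comparisons at different times share an estimate of the spread, so these calls are not independent of each other. In 76 of the 79 and 27 of the 28 the 60-hour difference exceeded the mean of the earlier ones, which follows in part from their choice at 60 hours. For opn1sw1 the differences were -1.85 at 36 hours, -1.05 at 48 hours and -4.37 at 60 hours, and for hbbe3 they were -0.08, 0.46 and 1.5. Among the sterol genes msmo1 was at 3.13, 3.75 and 2.72, hmgcs1 at 1.89, 3.45 and 2.73 and fdps at 1.19, 1.43 and 2.04 in order of time, and none of them passed the test of 60 hours against the earlier times (limma adjusted p = 0.830, 0.992 and 0.697).

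**Figure D3:**
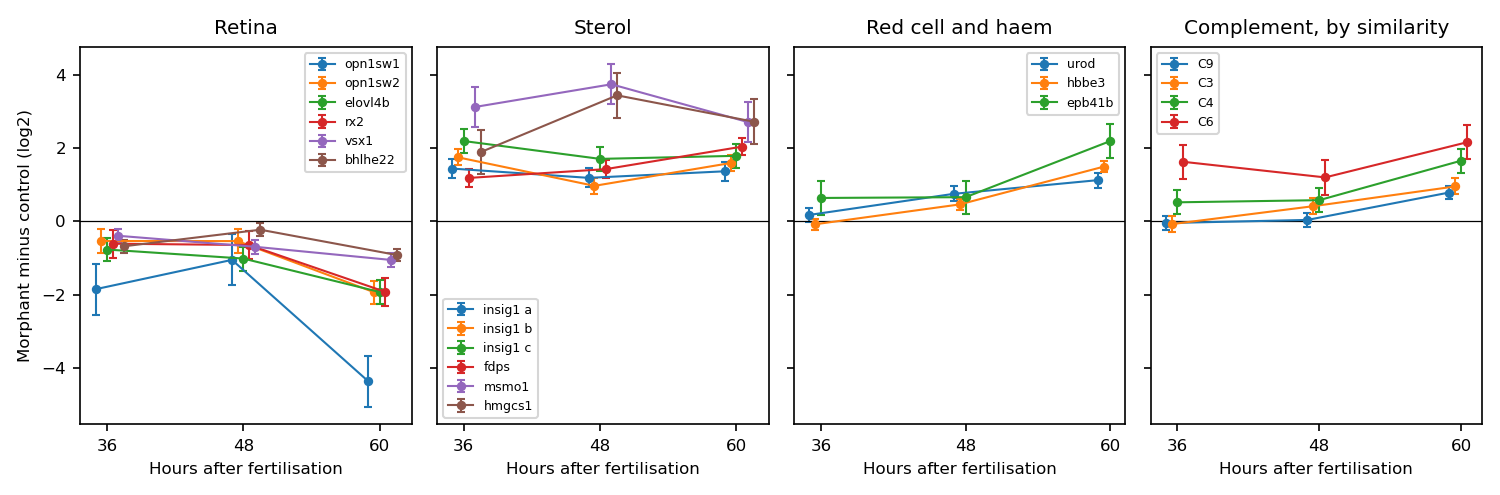
Morphant minus control difference (log2, vertical axis) at 36, 48 and 60 hours for called retinal, sterol, red cell and complement probe sets. Points are fitted differences with 3 arrays per group and bars are standard errors. Retinal differences are lowest at 60 hours (opn1sw1 at -4.37), sterol differences are above 0 at all 3 times, and hbbe3 goes from -0.08 to 1.5.

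The test of the 60-hour difference against the mean of the earlier ones called 2 probe sets of 11626 (0.0172%), and 779 had an unadjusted p under 0.05. One was hbbe3, whose difference was larger at 60 hours by 1.31 ± 0.18 (limma adjusted p = 0.0114). The other resembled human keratin 19, with differences of 1.23, 4.19 and -1.08 in order of time and a contrast of -3.8 ± 0.62 (limma adjusted p = 0.0451). Its control mean at 48 hours was -2.70, under the filter value of 0.62. The named genes with the next smallest p did not pass. Among them a dim probe set of foxn4, a factor of retinal progenitors, was at -0.74, -0.37 and 2.08 while its brightest was at 0.22 at 60 hours. In the same order of time, ckmt2a was at -0.18, 0.93 and -2.73, rbp4 at 0.08, 0.08 and -0.48, lhx1b at -0.18, 0.10 and 1.18 and dnajc5gb at -0.10, -0.04 and 2.43. For lama5, ggctb and ptpra the contrast was negative. In order of time lama5 was at 0.92, 0.80 and -0.05, ggctb at 0.14, 1.52 and -1.77 and ptpra at 0.62, 3.23 and -0.25. At 48 hours the control means of ggctb and ptpra were -1.45 and -0.71, under the filter value. The name of lama5 comes from a clone and is doubtful, since its description gives only a weak similarity to another chain, human laminin alpha4. That of ggctb comes from a clone number, with a description by similarity.

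Control embryos give a reference for age, since their change from 36 to 48 hours uses arrays outside the 60-hour comparison. The earlier age is 36 hours in the array titles and 32 hours in the treatment protocol, so the length of that interval is uncertain. Of the 28 probe sets that were lower in morphants, 15 had risen past the threshold in controls over those hours, against 11.0% of all probe sets. Past the threshold 2 of the 28 had fallen, against 11.6% of all. The median change was 0.65 against 0.04. For vsx1 the change was 2.53, for gng13b 1.86, for snap25b 1.39, for elovl4b 1.22 and for opn1sw2 1.21. The names of gng13b and elovl4b come only from the authors' lists, some of which were chosen by change over time in controls. For rx2 it was -0.81 and for ckmt2a -0.04, neither past the threshold. Of the 79 that were higher, 8 had risen and 8 had fallen past the threshold (11.0% and 11.6% of all), and the median was 0.13. Among those that fell in controls were urod by 1.74, hbbe3 by 1.09 and the glycine N-methyltransferase relative by 2.48. Such examples do not stand for the 79, of which 52 rose in controls by any amount. All of these changes describe chosen probe sets and were not tested as sets.

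The calls depended on single arrays and on the scaling. The count of 107 became 28, 14 and 456 without control arrays 1, 2 and 3, and 350, 10 and 14 without morphant arrays 1, 2 and 3. Every one of the 107 kept its direction in all 6 of these fits. That follows almost wholly from groups that did not overlap, so it adds no support. Of the 107, 6 were called in every fit. They were hbbe3, fdps, 1 probe set of insig1, the glycine N-methyltransferase relative, an undescribed probe set and the FLJ12553 relative. With arrays centred on their medians 60 of the 107 remained, hbbe3 not among them, and on the values as deposited hbbe3 alone was called (limma adjusted p = 0.00194). With the 6 arrays of 60 hours fitted alone 37 were called (0.318%), 29 of them among the 107. In the authors' deposited table for 60 hours, made from the same arrays, all 107 had the same direction. Their limits on probability and fold held 4.35% of probe sets as higher and 0.839% as lower, and 60 of the 79 and 7 of the 28 were among these.

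**Figure D4:**
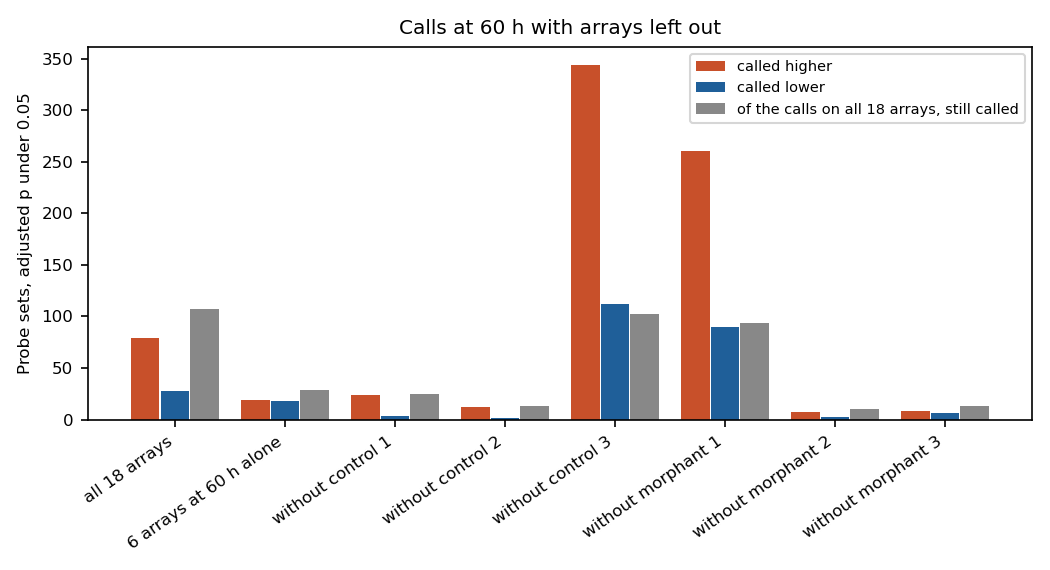
Number of probe sets with a limma adjusted p under 0.05 (vertical axis) on all 18 arrays, on the 6 arrays of 60 hours alone, and with each of those 6 left out. Orange bars are higher in morphants, blue bars lower, and grey bars count how many of the 107 calls remain. Counts fall to 10 without morphant array 2 and reach 456 without control array 3.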

How the data were processed

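Total RNA of whole zebrafish embryos was labelled with biotin and hybridised to Affymetrix zebrafish arrays, per the labels' protocols. The values used were deposited by the authors as expression values of each array on a log scale, taken here as log2, the scale of mmgMOS, which the names of the deposited tables give. The base is not stated. Per the deposited readme the authors combined arrays and gave fold values with the puma package, with a probability of a positive log ratio, a fraction from 0 to 1. The sources used here give no version of it. The authors' fold or log2 ratios and probabilities at 60 hours were only read beside the calls. Precision is limited by having 3 arrays per group (median SE of a 60-hour difference, 0.28).

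The manufacturer's 115 control probe sets were dropped, the other 15502 were quantile normalised over 18 arrays, and those with a mean under the 25th percentile (0.62) were left out, which left 11626. A mean per group was fitted with limma 3.58.1 in R 4.3.3 (variance prior with a trend on intensity, residual df 12, prior df 6.24), without covariates. The contrasts were morphant minus control at 60 hours, that difference minus the mean of those at 36 and 48 hours, and the control change from 36 to 48 hours. The fit was tested on simulated data. Folds are powers of the log2 difference and are not given where a group mean lay under 0.62.

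Probe sets were named from the deposited descriptions and lists and a RefSeq gene table, used for names only, so that 4038 of 15502 had 1 gene name. Names that only the authors' lists give are marked. Unnamed probe sets are called by the protein similarity in the descriptions of the authors' 48-hour table. Genes named are all called genes with a name, up to 15 unnamed probe sets per direction by similarity, members of the lists past the threshold with up to 3 others, the 10 named genes with the smallest p for the contrast over time, and a fixed set for the heart. In lists a gene counts by its brightest probe set. The comparison and the gene lists were chosen with earlier results of these data known. Groups by description (complement components, crystallins, tubulins, keratins and ribosomal proteins) were chosen after the values were seen, and their word patterns were then narrowed, with 3 other groups dropped, because they had matched unrelated proteins. They support nothing beyond description. One further list is not reported here.

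Alternatives were other scalings, filters and variance models, array weights, a replicate block, the 6 arrays alone, and leaving out each array.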

Additional observations from a re-analysis of the deposited data

Results flagged for a closer look

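The difference at 60 hours departed from that at the earlier times for 2 probe sets. For hbbe3 the 60-hour difference exceeded the earlier mean by 1.31 on the log2 scale, and leaving out single arrays kept it between 1.17 and 1.55. The limma adjusted p was past 0.05 without control array 1 (0.0620), morphant array 1 (0.0865) or morphant array 2 (0.0761), and with arrays centred on their medians (0.807) or no intensity trend (0.189). For the probe set similar to keratin 19 the contrast was -3.8, between -4.21 and -3.47 with single arrays left out, and it was called only without control array 3 among these (limma adjusted p = 0.00866, against 0.111 to 0.286 for the others). Its 60-hour difference of -1.08 did not pass by itself (limma adjusted p = 0.270), and its control level fell by 5.63 from 36 to 48 hours. That took the control mean at 48 hours to -2.70, under the filter value of 0.62.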

How the results depend on the processing

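The 107 calls (79 higher, 28 lower) and the 2 calls of the contrast over time moved with most choices. In the order total, higher, lower and contrast over time, the counts were 1, 1, 0 and 1 on values as deposited, 63, 45, 18 and 0 with arrays centred on their medians, 37, 25, 12 and 0 without an intensity trend, and 4854, 2468, 2386 and 2424 with array quality weights, which gave control array 1 and morphant array 2 weights of 3.49 and 4.02 and the other 4 arrays 0.40 to 0.94. No filter and a filter at the 50th percentile gave 93 and 106 calls and a contrast count of 1 each. The 6 arrays alone gave 37, 19 and 18. Requiring a log2 difference of at least 1 left 78, 62 and 16, and the authors' limits on probability and fold gave 804, 674 and 130. Single arrays left out gave 10 to 456 in all, 7 to 344 higher, 2 to 112 lower and 0 to 15 for the contrast. On the values as deposited the unadjusted p was under 0.05 for 707 probe sets. The replicate block gave 182, 141 and 41 calls, 95 of the 107 among them, and 1 for the contrast. Deviations of same-numbered arrays correlated at 0.16, -0.06 and 0.27, and those of different-numbered arrays at -0.31 to 0.15. With 3 arrays per group these values cannot settle whether the array numbers pair the samples. Of the calls 73.8% were higher, against 51.4% with the 6 arrays alone, 50.8% with weights and 57.1% to 85.7% with single arrays left out. Only cyt1 changed sign, to -0.056 with arrays centred. With 3 arrays per group and a control array of low signal, single-gene calls near the threshold are fragile, and the cause of these shifts was not tested.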
